A study of Mus musculus with 18 samples.

Results

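Interferon-stimulated antiviral genes were followed in mouse liver as a list of 43 symbols covering antiviral effectors, nucleic acid sensors and interferon regulatory factors. Interferon-inducible GTPases other than Mx1 and Mx2 were left out, as were MHC genes. The genes are listed by name and no threshold on a measured value enters the list, which was drawn up with earlier results of these data known. Of the 43 symbols, 42 had a row among the 24394 gene rows of the count table (Rnf213 was not analysed here), and 38 of the 42 passed the filter on low counts that left 11218 genes for testing. Oas1a, Oas1g, Oas2 and Mx1 did not pass it. Two-sided tests were run with edgeR on the counts, and p-values were adjusted over all 11218 genes by the Benjamini-Hochberg method, with a threshold of 0.05.

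Interferons bind cell-surface receptors whose Janus kinases activate STAT transcription factors. A complex that holds STAT2 and IRF9 binds interferon-stimulated response elements (ISRE), and other STAT dimers bind gamma-activated sequences (GAS), which raises transcription of genes whose products block viral entry, replication and protein synthesis. STAT3 relays IL-6 family cytokines in hepatocytes.

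Livers of 3 groups of 6 mice were sequenced as tags from the 3′ ends of polyadenylated RNA. The Stat3-deleted group bore tumours and carried Alb-Cre+/+;Stat3f/f, a Cre recombinase under the albumin promoter that removes the floxed part of Stat3 in hepatocytes and leaves it in the other liver cells. The WT PDAC group were wild-type mice with a tumour, and the WT control group wild-type control mice. The tumour line is PDA.69, a mouse pancreatic ductal adenocarcinoma line from the KPC model, which the labels list for the control livers as well. Neither the sex and age of the mice nor where and when tumour cells were implanted is stated in the sources used here. No tumour-free Stat3-deleted livers were analysed here, so the effect of the deletion without a tumour was not measured. Bulk RNA does not tell a change of RNA per cell from a change in the number of cells of a type.

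Library totals ran from 7211799 to 9532978 in Stat3-deleted, 6159553 to 8838849 in WT PDAC and 5204378 to 7149953 in WT control livers. Stat3 itself averaged 118 ± 12.8 CPM in Stat3-deleted and 213 ± 38.3 CPM in WT PDAC livers (CPM, counts scaled to a common library size after TMM normalization; SD, n = 6 each), a log2 fold change of -0.85 (edgeR adjusted p = 0.00043), with no overlap between the groups. The sources used here do not say which exons are floxed, so whether the 3′ tags of Stat3 check the deletion is not known. The label numbers of the Stat3-deleted livers, 25444 to 25451, form a run of their own below those of the WT livers, so anything that goes with the number run cannot be told apart from genotype.

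Promoter sequence is shown first because the interferon response is read through these elements, and the windows below belong to 5 genes that were higher in Stat3-deleted livers and to Ifit3. Promoters, the 250 bases before the transcription start in RefSeq on GRCm38.p6, were available for 31 of the members. The ISRE core was searched as GAAANNGAAA and the GAS as TTCNNNGAA, where N is any base, on both strands and with overlapping matches kept. The capitals mark ISRE cores, except in Irf1, where they mark the GAS.
Isg15: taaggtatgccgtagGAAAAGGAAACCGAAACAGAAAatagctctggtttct
Ifit1: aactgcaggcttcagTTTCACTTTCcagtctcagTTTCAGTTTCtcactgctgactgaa
Rsad2: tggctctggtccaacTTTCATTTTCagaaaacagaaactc
Bst2: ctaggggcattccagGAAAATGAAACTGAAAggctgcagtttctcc
Ifit3: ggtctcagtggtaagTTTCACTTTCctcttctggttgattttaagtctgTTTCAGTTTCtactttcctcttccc
Irf1: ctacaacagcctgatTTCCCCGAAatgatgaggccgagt

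These stretches read 5′ to 3′ on the strand of the gene. Isg15 (chr4:156200860-156200911, minus strand) holds 3 overlapping cores between 78 and 57 bases before its start. Ifit1 (chr19:34640770-34640828, plus strand) holds 2 separate cores between 104 and 76 bases before its start. Rsad2 (chr12:26456548-26456587, minus strand) holds 1 core. In Bst2 (chr8:71537572-71537617, minus strand) a pair of cores overlap each other, and the first of them overlaps a GAS, which lies 136 to 128 bases before the start. Ifit3 (chr19:34583358-34583431, plus strand) holds 2 cores, and its neighbour Ifit3b (chr19:34607754-34607827) holds the same 74 bases. Irf1 (chr11:53769909-53769947, plus strand) holds a GAS 90 to 82 bases before its start.

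A gene was counted as holding a motif if any of its promoters matched. The ISRE core was present in 10 of the 31 members with a promoter (32.3%) and in 3.46% of all 27025 genes with one. Not all of the 10 are separate cases: promoters of Ifit3 and Ifit3b matched at 86.8% of bases and those of Oas1a and Oas1g at 84.8%. The core followed by CT, as GAAANNGAAACT, was present in 7 of the 31 (22.6%) and in 0.255% of all genes with a promoter. The GAS was present in 6 of the 31 (19.4%) and in 8.13% of all genes with a promoter. Within the members, the core was present in 4 of 10 genes that rose in Stat3-deleted against WT PDAC livers and in 4 of 19 that were tested and not called, a difference that was not tested. A match is a run of letters and does not show that a factor binds there.

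Against WT PDAC livers, Stat3-deleted livers had higher levels of 14 of the 38 members tested (36.8%), where 2.89% of all genes tested were higher. They spanned the ISG15 system (Isg15, Usp18, Herc6), 1 IFIT gene (Ifit1), the sensor Zbp1, 3 interferon regulatory factors (Irf1, Irf7, Irf9), the effectors Rsad2 and Bst2, and Ifi44, Ifi27, Ifi35 and Rtp4. In the other direction 0 members passed, against 3.23% of all genes tested. The log2 fold change was above 0 in 35 of the 38 members and in 45.9% of all genes tested, and its median was 0.62 in members and -0.03 in all genes tested, with a range of -0.42 to 2.06 in members. An unadjusted p under 0.05 was found for 19 members (50%) and for 2181 of all 11218 genes tested. No member had groups that did not overlap: 0 lay wholly above, where 1.4% of all genes tested did, and 0 lay wholly below, where 1.9% did. The plots of fold changes and of levels by liver show both facts, the shift of most members and the width of the Stat3-deleted group.

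**Figure D1:**
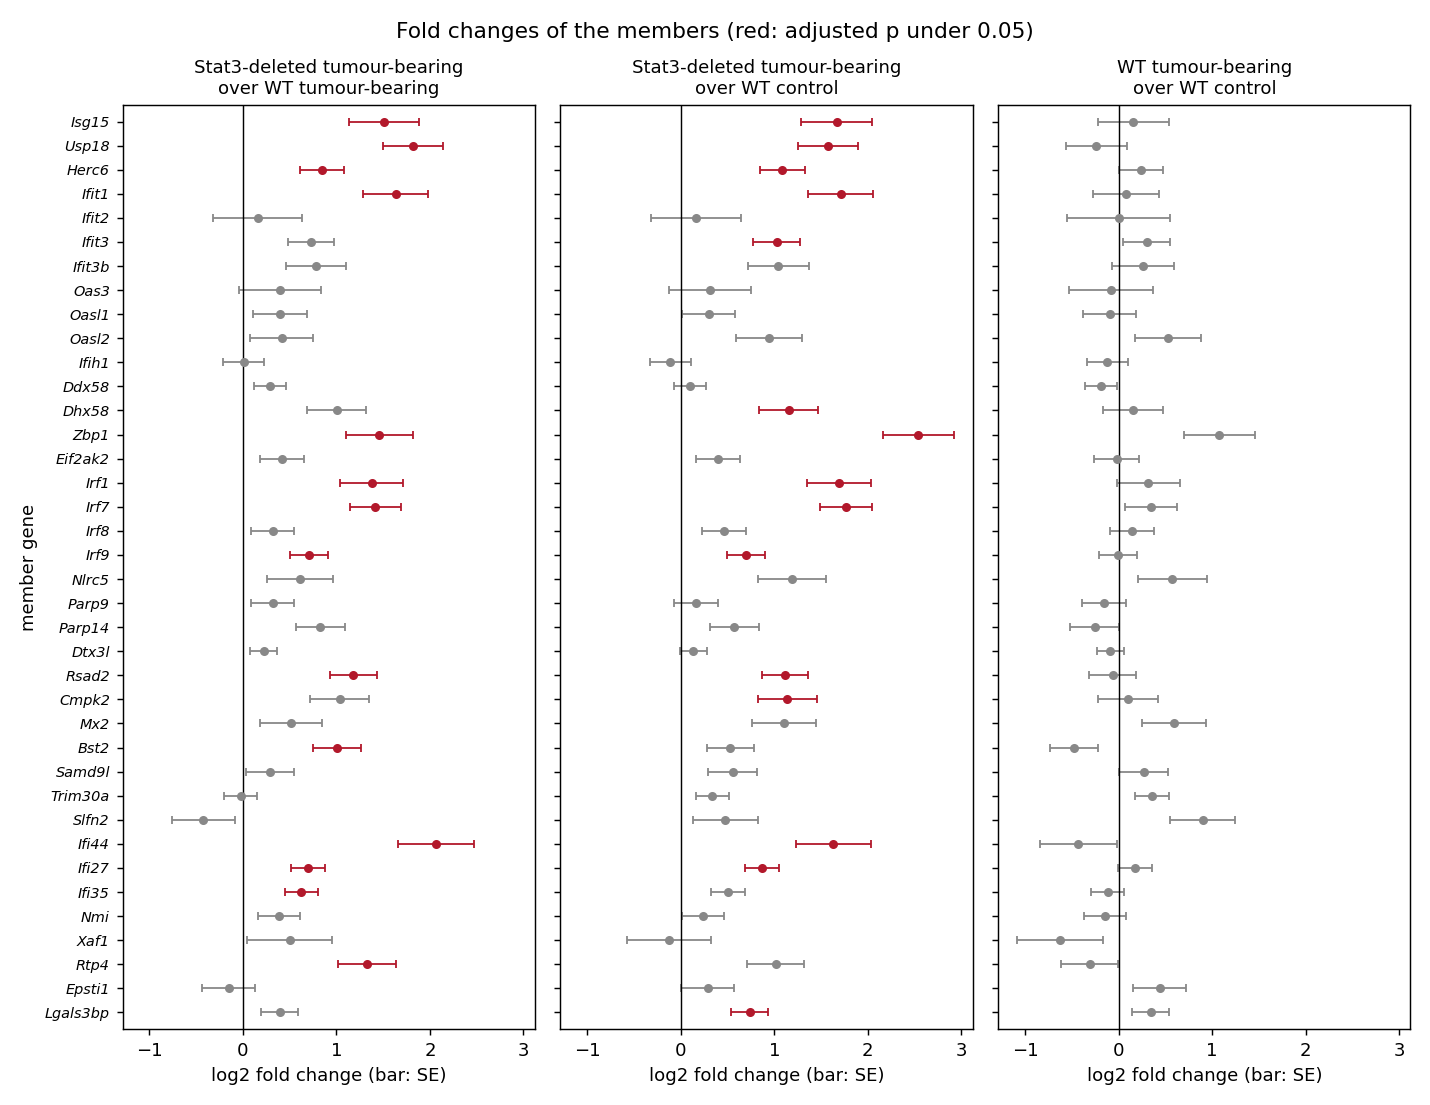
Log2 fold change (x axis; bar, SE) of each of the 38 tested members (y axis, by role) in Stat3-deleted over WT PDAC livers (left), Stat3-deleted over WT control livers (middle) and WT PDAC over WT control livers (right). Red points, adjusted p under 0.05, number 14, 15 and 0 from left to right.

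The ISG15 system comprises Isg15, a ubiquitin-like protein attached to other proteins after interferon exposure, Herc6, the mouse ligase that attaches it, and Usp18, the protease that removes it and dampens signalling at the type I receptor. All 3 were higher in Stat3-deleted livers. Isg15 ranged from 16.3 to 109 CPM (median 51.2) in Stat3-deleted livers, from 7.42 to 28.6 (median 20.9) in WT PDAC livers and from 10.9 to 25.2 (median 17.8) in WT control livers. Stat3-deleted replicates 3 and 6 lay within the WT PDAC range and the other 4 above it. Over WT PDAC livers the log2 fold change was 1.51 (SE 0.37 and adjusted p = 0.0157). Without Stat3-deleted replicate 2 the adjusted p was 0.0561, and with limma voom it was 0.0676.

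Usp18 had the smallest adjusted p of the members in this comparison. It ranged from 7.63 to 53.6 CPM (median 22.4) in Stat3-deleted, from 5.45 to 8.97 (median 7.32) in WT PDAC and from 7.10 to 10.2 (median 8.67) in WT control livers. Of the Stat3-deleted livers, replicate 6 alone fell within the WT PDAC range. Over WT PDAC livers the log2 fold change of Usp18 was 1.82 (SE 0.32 and adjusted p = 0.00101). Herc6 ranged from 16.8 to 56.9 CPM (median 38.7) in Stat3-deleted, from 15 to 29.6 (median 21) in WT PDAC and from 14.3 to 22.5 (median 16.8) in WT control livers, with replicates 3 and 6 inside the WT PDAC range. For Herc6 the log2 fold change was 0.85 (SE 0.23 and adjusted p = 0.0314). That call was lost without Stat3-deleted replicate 1, 2 or 5 (adjusted p = 0.0616, 0.0944 and 0.0867), without WT PDAC replicate 3 or 4 (0.0658 and 0.0748), with limma voom (0.0684) and in a fit of these 2 groups alone (0.0555).

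The IFIT genes encode proteins that bind foreign RNA or block its translation. Ifit1, which recognises RNA caps lacking ribose methylation, ranged from 8.44 to 45.7 CPM (median 32.1) in Stat3-deleted, from 4.86 to 12.7 (median 10.7) in WT PDAC and from 3.90 to 14.8 (median 8.99) in WT control livers. Only Stat3-deleted replicate 3 lay within the WT PDAC range. Its log2 fold change over WT PDAC livers was 1.63 (SE 0.35 and adjusted p = 0.00516). Ifit3, a partner of IFIT1, ranged from 23 to 52.9 CPM (median 40.5) in Stat3-deleted, from 12.4 to 35 (median 25) in WT PDAC and from 11.6 to 24 (median 20.1) in WT control livers, and its log2 fold change of 0.73 did not pass against WT PDAC livers (adjusted p = 0.0878). Its near copy Ifit3b had a log2 fold change of 0.78 (adjusted p = 0.17) and Ifit2 one of 0.16 (adjusted p = 0.897). The last 300 bases of Ifit3 and Ifit3b, where tags fall, matched at only 166 positions (55.3%) in the best-matching pair of GENCODE transcripts. The sources used here do not say how reads shared by copies were counted.

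OAS proteins make 2′-5′-linked oligoadenylates that activate RNase L, and the mouse OAS-like protein Oasl1 lacks that activity. None of the 3 tested genes, Oas3, Oasl1 and Oasl2, passed, and their log2 fold changes over WT PDAC livers were 0.40 to 0.42. Oasl1, which in mice restrains translation of Irf7, ranged from 6.66 to 23.2 CPM (median 9.09) in Stat3-deleted, from 6.51 to 13.4 (median 9.07) in WT PDAC and from 5.36 to 13.1 (median 10.4) in WT control livers. The groups overlapped in most livers. Oas1a, Oas1g and Oas2 had means of at most 1.06 CPM in every group and did not pass the filter on low counts, so they were not tested in the main fit.

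Among the sensors, Zbp1, which binds left-handed nucleic acid and can start necroptosis, was higher. It ranged from 11.7 to 61.3 CPM (median 39.3) in Stat3-deleted, from 8.20 to 23.6 (median 10.8) in WT PDAC and from 3.34 to 8.99 (median 6.10) in WT control livers. Stat3-deleted replicates 3 and 6 overlapped the WT PDAC livers, and all 6 lay above every WT control liver. Against WT PDAC livers, Zbp1 had a log2 fold change of 1.46 (SE 0.36 and adjusted p = 0.0149), with an adjusted p of 0.0604 in limma voom. Ifih1, which encodes the long double-stranded RNA sensor MDA5, ranged from 16.2 to 47 CPM (median 38.8) in Stat3-deleted, from 19.1 to 44.4 (median 37) in WT PDAC and from 32.7 to 46.4 (median 37.3) in WT control livers, and its log2 fold change of 0.01 had an SE of 0.22 and a sign that turned under limma voom (-0.14). Ddx58, which encodes the RNA sensor RIG-I, had a log2 fold change of 0.29 (adjusted p = 0.363), and the kinase gene Eif2ak2, whose product PKR stops translation on double-stranded RNA, one of 0.42 (adjusted p = 0.333). Dhx58, the regulatory sensor LGP2, had a log2 fold change of 1.00 (SE 0.31 and adjusted p = 0.0585).

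Of the transcription regulators, 3 of 5 rose in Stat3-deleted livers. Irf1, an interferon-induced transcription factor, ranged from 30.6 to 156 CPM (median 98.7) in Stat3-deleted, from 15.6 to 50.7 (median 41.7) in WT PDAC and from 18 to 56.5 (median 28.2) in WT control livers. Irf7, the regulator of type I interferon genes, ranged from 28.7 to 138 CPM (median 91.6) in Stat3-deleted, from 19.8 to 46.6 (median 30.5) in WT PDAC and from 14.2 to 32.8 (median 24.9) in WT control livers. In both genes replicate 6 was the lowest Stat3-deleted liver and the only one inside the WT PDAC range. The log2 fold changes over WT PDAC livers were 1.38 for Irf1 (SE 0.34 and adjusted p = 0.0150) and 1.42 for Irf7 (SE 0.28 and adjusted p = 0.00252).

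Irf9, the DNA-binding partner of STAT2, ranged from 47.7 to 101 CPM (median 82.9) in Stat3-deleted, from 29.97 to 71.6 (median 48.2) in WT PDAC and from 32.4 to 63.4 (median 51.5) in WT control livers, again with replicate 6 alone inside the WT PDAC range. Its log2 fold change over WT PDAC livers was 0.70 (SE 0.20 and adjusted p = 0.0394). The call was lost in 10 of the 18 fits that leave out 1 liver, namely Stat3-deleted replicates 1 to 5 (adjusted p = 0.0749, 0.0680, 0.0744, 0.0570 and 0.0998) and WT PDAC replicates 1, 2, 3, 4 and 6 (0.0528, 0.0851, 0.0627, 0.0840 and 0.0604). Irf8, a regulator of myeloid cells, had a log2 fold change of 0.32 (adjusted p = 0.477), and Nlrc5, the transactivator of MHC class I genes, one of 0.61 (adjusted p = 0.355).

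Parp9 and Dtx3l encode an ADP-ribosyltransferase and a ubiquitin ligase that act as a pair, and Parp14 encodes a related ADP-ribosyltransferase; none of them passed. Parp9 ranged from 42.4 to 116 CPM (median 81.1) in Stat3-deleted, from 36.9 to 79.5 (median 71) in WT PDAC and from 46.1 to 109 (median 66.8) in WT control livers, a log2 fold change over WT PDAC livers of 0.32 (adjusted p = 0.486). The groups overlapped widely. Dtx3l, whose annotated span overlaps that of Parp9, had a log2 fold change of 0.22 (adjusted p = 0.408), and Parp14 one of 0.83 (adjusted p = 0.0616). Reads from the short stretch that Dtx3l and Parp9 share cannot be separated here, and how many fell there was not measured.

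Of the other effectors, Rsad2 and Bst2 rose. Rsad2 encodes viperin, which makes a chain-terminating nucleotide from CTP, and ranged from 29.8 to 103 CPM (median 77.6) in Stat3-deleted, from 24.1 to 40.5 (median 27.8) in WT PDAC and from 24.9 to 42.7 (median 32) in WT control livers. Stat3-deleted replicates 3 and 6 lay within the WT PDAC range. The log2 fold change over WT PDAC livers was 1.18 (SE 0.25 and adjusted p = 0.00516). Cmpk2, a nucleotide kinase gene that lies 12.7 kb from Rsad2 on chromosome 12, ranged from 7.24 to 30.4 CPM (median 21.1) in Stat3-deleted, from 4.46 to 16 (median 9.52) in WT PDAC and from 6.03 to 13 (median 9.35) in WT control livers. Its log2 fold change of 1.04 (SE 0.31 and adjusted p = 0.0501) lay just outside the threshold, and 5 of 10 other settings placed it inside.

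Bst2 encodes tetherin, which holds budding virus at the cell surface. It ranged from 79.3 to 171 CPM (median 133) in Stat3-deleted, from 24.2 to 86.5 (median 70.2) in WT PDAC and from 59.1 to 119 (median 88.9) in WT control livers, with Stat3-deleted replicates 3 and 6 inside the WT PDAC range. The log2 fold change over WT PDAC livers was 1.01 (SE 0.26 and adjusted p = 0.0188), and it was lost without Stat3-deleted replicate 5 (adjusted p = 0.0526) or WT PDAC replicate 4 (0.0507). Mx2, Samd9l and Trim30a had log2 fold changes of 0.52, 0.29 and -0.02 and did not pass. Slfn2, a regulator of T cell and monocyte quiescence, had the lowest log2 fold change of all members, -0.42 (SE 0.34 and adjusted p = 0.525). Mx1, the GTPase gene of influenza resistance, had a mean of 0.617 CPM in Stat3-deleted, 0.801 in WT PDAC and 1.18 in WT control livers and was not tested.

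Among the remaining induced genes, Ifi44, which encodes a cytoplasmic protein with an antiproliferative effect, had the largest log2 fold change of all members, 2.06 (SE 0.41 and adjusted p = 0.00290). It ranged from 8.44 to 60.8 CPM (median 37.4) in Stat3-deleted, from 1.06 to 11.6 (median 8.48) in WT PDAC and from 9.46 to 12.1 (median 10.6) in WT control livers. Stat3-deleted replicates 3 and 6 lay inside the WT PDAC range, and WT PDAC replicate 6 was far below its group. Rtp4, a chaperone of membrane receptors, ranged from 30.9 to 162 CPM (median 90.1) in Stat3-deleted, from 12.7 to 43.8 (median 42.7) in WT PDAC and from 30.5 to 60.8 (median 44.2) in WT control livers, a log2 fold change over WT PDAC livers of 1.32 (SE 0.31 and adjusted p = 0.0108). Replicate 6 was the only Stat3-deleted liver inside the WT PDAC range.

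Ifi27, which encodes a small hydrophobic protein of intracellular membranes, ranged from 242 to 401 CPM (median 308) in Stat3-deleted, from 136 to 259 (median 186) in WT PDAC and from 111 to 207 (median 182) in WT control livers. Its log2 fold change over WT PDAC livers was 0.70 (SE 0.18 and adjusted p = 0.0199), or an adjusted p of 0.0593 without Stat3-deleted replicate 5. Ifi35, which encodes a leucine zipper protein that binds NMI, ranged from 27.4 to 46.5 CPM (median 40.7) in Stat3-deleted, from 19.1 to 32.7 (median 23.9) in WT PDAC and from 18.9 to 35.1 (median 25.1) in WT control livers. In both genes replicate 6 was the only Stat3-deleted liver inside the WT PDAC range. The log2 fold change of Ifi35 was 0.63 (SE 0.18 and adjusted p = 0.0367). Its call was lost without Stat3-deleted replicate 1, 2, 4 or 5 (adjusted p = 0.0700, 0.0623, 0.0710 and 0.0899) and without WT PDAC replicate 1, 2, 3 or 6 (0.0843, 0.0518, 0.0900 and 0.0598). Nmi, Xaf1, Epsti1 and Lgals3bp did not pass, with log2 fold changes of 0.39, 0.50, -0.15 and 0.39.

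On chromosome 11, Dhx58 and Ifi35 lie 0.183 and 0.509 Mb from Stat3. A difference in them that is carried with the floxed allele cannot be told apart from an effect of Stat3 loss. The closest other tested member, Lgals3bp, lies 17.5 Mb away.

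**Figure D2:**
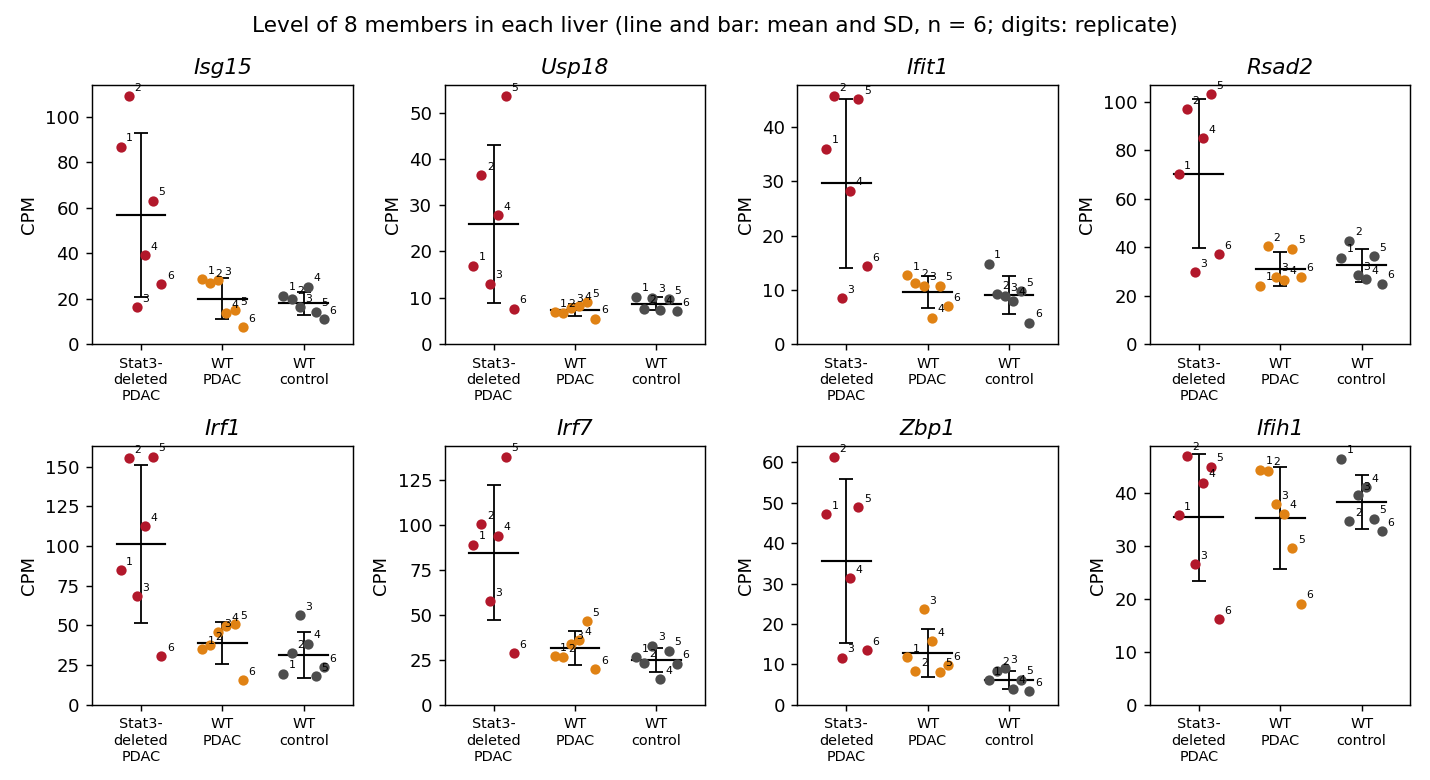
CPM (y axis, TMM-scaled) of 8 members in each liver of the 3 groups; line and bar, mean and SD (n = 6), digits, replicate. Isg15, Usp18, Ifit1, Rsad2, Irf1, Irf7 and Zbp1 spread upward in Stat3-deleted livers and overlap the WT PDAC livers, while Ifih1, at a median of 38.8 CPM in Stat3-deleted and 37 CPM in WT PDAC livers, does not differ by the test.

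The members did not move by the same amount in each Stat3-deleted liver. The number of the 38 tested members that lay above every WT PDAC liver was 23, 29, 7, 26, 32 and 1 in Stat3-deleted replicates 1 to 6, where 11 to 16% of all genes tested did so in a single liver. The median log2 ratio of the members to the WT PDAC mean was 0.73, 0.87, 0.19, 0.79, 1.10 and -0.17 in the same order. Replicate 5 held the highest value of its group for 22 members (19.8% of all genes tested) and replicate 6 the lowest for 25 (20.6%). Replicate 6 was also the lowest liver of its group for 27 members in WT PDAC livers (24.6% of all genes tested) and for 17 in WT control livers (16%). In WT PDAC replicate 6 the median ratio was -0.55.

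**Figure D3:**
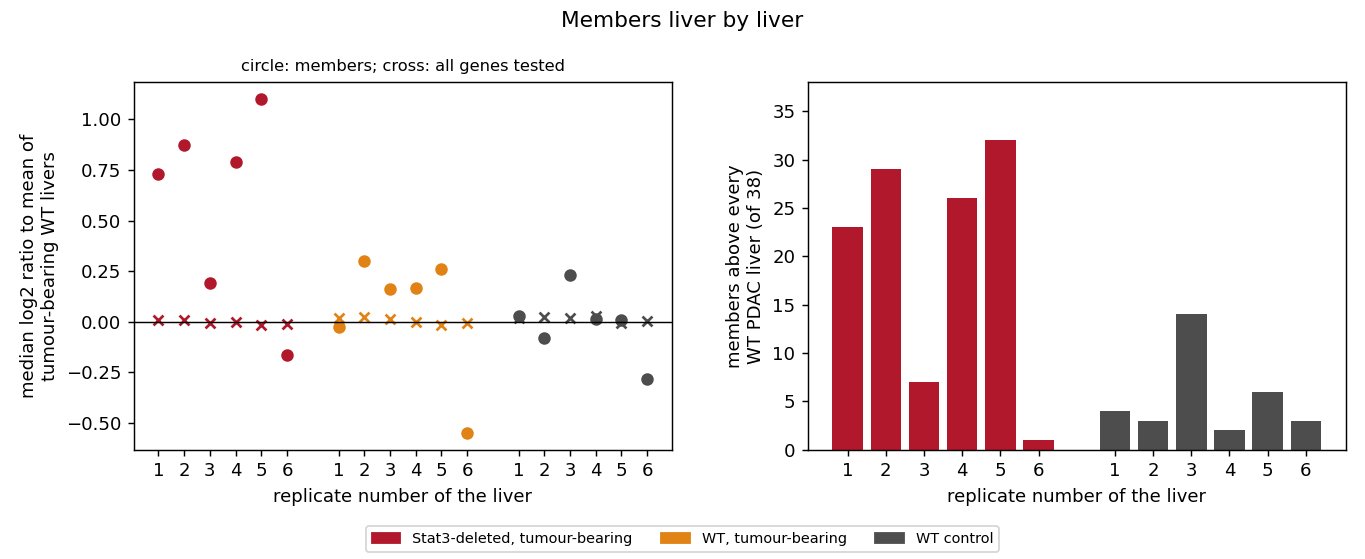
Left, median log2 ratio to the mean of WT PDAC livers (y axis) over members (circles) and over all genes tested (crosses) in each liver (x axis). Right, number of the 38 tested members above every WT PDAC liver in each Stat3-deleted and WT control liver: 1 to 32 in Stat3-deleted and 2 to 14 in WT control livers. Of all genes tested, 11 to 16% lay above in single Stat3-deleted livers and 11.8 to 20.2% in single WT control livers. The count of 14 was that of WT control replicate 3 (13.3% of all genes tested), and the other WT control livers had 2 to 6.

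The spread between livers was widest in the Stat3-deleted group for 25 of the 38 members (SD of log2 CPM), where this held for 20.5% of all genes tested. The median SD of the members was 0.61 in Stat3-deleted, 0.49 in WT PDAC and 0.38 in WT control livers, and that of all genes tested was 0.31, 0.39 and 0.35. Of the 14 calls, 8 were made in each of the 18 fits that leave out 1 liver, namely Usp18, Ifit1, Zbp1, Irf1, Irf7, Rsad2, Ifi44 and Rtp4. In the 10 other settings at the same threshold, only 2 of the 14 were called throughout, Usp18 and Ifi44. These settings include 2 fits with only 3 livers per WT group, the runs of label numbers described below. Outside those runs, limma voom lost Isg15, Herc6 and Zbp1, the fit of the 2 groups alone lost Herc6, and no other call of the 14 was lost. The number of members called ranged from 9 without Stat3-deleted replicate 5 to 17 without Stat3-deleted replicate 6. Of all genes tested, 2.05% and 2.43% were higher in these 2 fits. Without replicate 6, 7 members lay wholly above the WT PDAC livers, where 1.93% of all genes tested did, against 0 members and 1.4% with it. Without WT PDAC replicate 3 it was 1 member (1.56% of all genes tested), and without Stat3-deleted replicate 3 also 1 (1.58%).

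**Figure D4:**
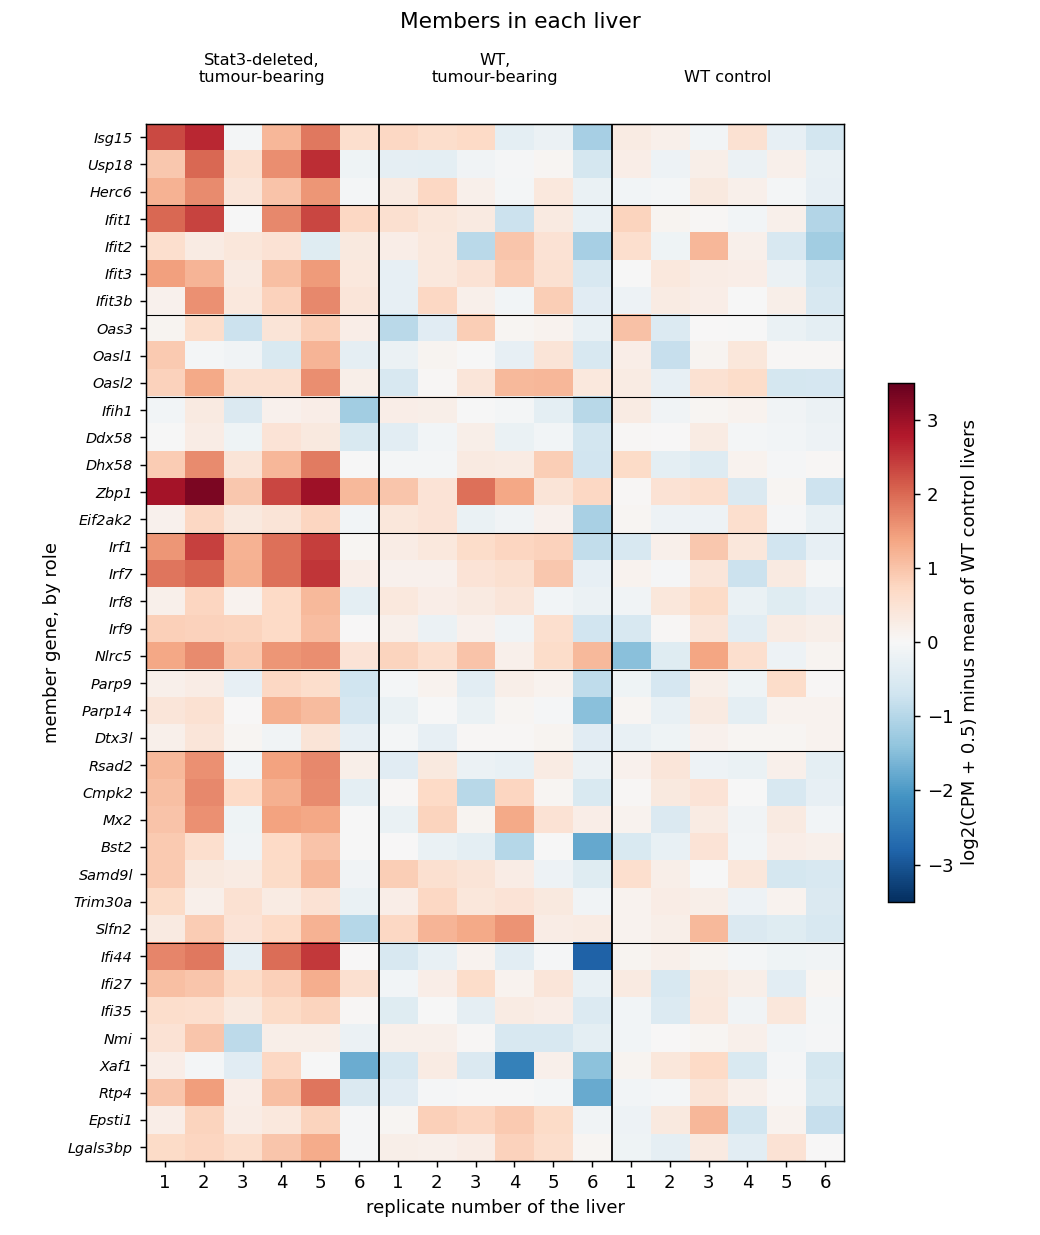
Log2(CPM + 0.5) of each tested member (rows, by role) in each liver (columns, 6 per group), minus the mean of the WT control livers. Red is deepest in Stat3-deleted replicates 1, 2, 4 and 5, and most members are pale or blue in replicate 6 of all 3 groups.

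Kupffer cell markers moved with part of this order. Their summed level was 879 to 2353 CPM (median 1342) in Stat3-deleted, 893 to 2133 (median 1285) in WT PDAC and 501 to 1275 (median 827) in WT control livers, all 12 markers were detected in every group, and replicate 6 was the lowest of each group. In Stat3-deleted replicate 5 the sum was highest. The next sum was that of Stat3-deleted replicate 3 (1447 CPM), with 7 members above every WT PDAC liver. It lay above those of replicates 1, 2 and 4 (1291.5, 1346 and 1338 CPM), which had 23, 29 and 26 such members. Between Stat3-deleted and WT PDAC livers 0 of the 12 markers passed the edgeR test, an unadjusted p under 0.05 was found for 0, and their median log2 fold change was 0.03. Monocyte and macrophage markers summed to 62.3 to 127 CPM (median 79.2) in Stat3-deleted, 59.3 to 162 (median 105) in WT PDAC and 29.0 to 99.2 (median 54.9) in WT control livers, again lowest in replicate 6 and highest in replicate 5 of the Stat3-deleted group. In WT PDAC livers their sum was lowest in replicate 5. Hepatocyte markers summed to 105576 to 120067 CPM in Stat3-deleted, 67255 to 144243 in WT PDAC and 63557 to 96476 in WT control livers, and WT PDAC replicate 6, lowest for 27 members, held the highest hepatocyte sum of all livers. Endothelial markers summed to medians of 329.7, 271 and 248 CPM in Stat3-deleted, WT PDAC and WT control livers, and ductal and tumour epithelial markers to 15.8, 33.2 and 17.9 CPM. The part of these cells in the order of the livers was not tested. Neutrophil markers went the other way: 3 of the 4 tested were lower, with sums of 37.5 to 104 CPM (median 53.3) in Stat3-deleted and 69.0 to 348 (median 158) in WT PDAC livers. T cell, NK cell and plasmacytoid dendritic cell markers, which mark cells that make interferons, summed to medians of 10.1, 9.08 and 4.83 CPM in Stat3-deleted and 9.37, 5.21 and 10.6 CPM in WT PDAC livers. None of the 3 tested T cell and 3 tested NK cell markers passed, and 1 of 3 tested plasmacytoid markers, Ly6d, was lower.

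Interferon transcripts were near the limit of detection. Of 21 interferon genes in the table, 18 were at 0 counts in all 18 livers, among them Ifnb1 and every Ifna gene listed. Ifng, made by T and NK cells, had counts in 1 Stat3-deleted and 1 WT control liver, Ifnk in 2 WT PDAC livers and Ifnz in 1 Stat3-deleted liver. A count of 0 allows up to 3 counts, or 0.329 to 0.518 CPM in these libraries, so lower levels were not detectable.

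Downstream of the receptors, Stat2, the partner of IRF9, averaged 18.95 ± 6.21 CPM in Stat3-deleted and 20.1 ± 4.01 CPM in WT PDAC livers (SD, n = 6; log2 fold change -0.08, edgeR adjusted p = 0.875). Of 12 tested adaptors and kinases of nucleic acid sensing, 0 passed the edgeR test, with 1 at an unadjusted p under 0.05.

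Other interferon-induced lists moved to different extents. Among 32 tested further interferon-stimulated genes, 3 were higher and 1 lower, with a median log2 fold change of 0.21. Apol9b and Apol9a, interferon-induced apolipoprotein L genes, had log2 fold changes of 1.76 (adjusted p = 0.000166) and 2.03 (adjusted p = 0.000338). Ube2l6, which conjugates ISG15, had one of 0.78 (adjusted p = 0.0484), a call made in 4 of 18 fits without 1 liver and with an adjusted p of up to 0.135 (without Stat3-deleted replicate 5). Ifitm2, which hinders viral entry, was lower, at -0.67 (adjusted p = 0.0154, or 0.0520 without WT PDAC replicate 4). The interferon-inducible GTPases outside the members had 8 of 13 tested genes higher and a median of 1.54. The MHC class I and immunoproteasome genes had 7 of 11 higher and a median of 0.80. Whether the members differ from these lists was not tested.

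Against WT control livers, Stat3-deleted livers had higher levels of 15 of the 38 members (39.5%), where 2.19% of all genes tested were higher, and 0 lower, where 2.66% were. This comparison shares the Stat3-deleted livers with the one above and is not independent of it. The median log2 fold change was 0.72 in members and -0.01 in all genes tested, and 36 of 38 members lay above 0 (49.1% of all genes tested). Here 24 members (63.2%) had an unadjusted p under 0.05, as did 2334 of all 11218 genes tested. The 15 were Isg15, Usp18, Herc6, Ifit1, Ifit3, Dhx58, Zbp1, Irf1, Irf7, Irf9, Rsad2, Cmpk2, Ifi44, Ifi27 and Lgals3bp. Bst2, Ifi35 and Rtp4, which were higher than in WT PDAC livers, did not pass here (log2 fold changes of 0.53, 0.51 and 1.01, adjusted p = 0.235, 0.102 and 0.0583). Between these groups 2 members did not overlap, Zbp1 and Ifi27, both wholly above, where 1.98% of all genes tested lay above, and 0 lay wholly below, where 1.84% did. Without Stat3-deleted replicate 6, 9 members lay wholly above, where 2.84% of all genes tested did.

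Zbp1 had the largest change in this comparison, a log2 fold change of 2.54 (SE 0.38 and adjusted p = 0.000682), and Irf7 followed in adjusted p with 1.76 (SE 0.28 and adjusted p = 0.000977). Ifi27, whose lowest Stat3-deleted liver lay at 242 CPM and highest WT control liver at 207 CPM, had a log2 fold change of 0.87 (SE 0.18 and adjusted p = 0.00887). Lgals3bp, a secreted glycoprotein gene, ranged from 56 to 142 CPM (median 94.3) in Stat3-deleted, from 59.9 to 100 (median 67.4) in WT PDAC and from 44 to 81.7 (median 54.6) in WT control livers. Replicate 6 was the only Stat3-deleted liver inside the WT control range. Its log2 fold change over WT control livers was 0.74 (SE 0.20 and adjusted p = 0.0325). Dhx58 ranged from 4.40 to 16.8 CPM (median 9.58) in Stat3-deleted, from 2.57 to 8.45 (median 4.86) in WT PDAC and from 3.11 to 7.33 (median 4.42) in WT control livers, and its log2 fold change over WT control livers was 1.16 (SE 0.31 and adjusted p = 0.0354). Ifit3 and Cmpk2 had 1.03 (SE 0.25 and adjusted p = 0.0209) and 1.14 (SE 0.32 and adjusted p = 0.0392).

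Of these 15 calls, 8 were made in every fit without 1 liver: Usp18, Herc6, Ifit1, Zbp1, Irf1, Irf7, Rsad2 and Ifi27. In the 10 other settings at the same threshold, 0 of the 15 were called throughout. With only the 3 WT control livers of the lower label numbers, described below, 0 members were called, where 0.153% of all genes tested were higher. Outside the runs of label numbers, calls were lost only with limma voom and with library totals alone. Without Stat3-deleted replicate 2 the adjusted p was 0.0509 for Isg15, 0.0527 for Ifi44, 0.0626 for Lgals3bp, 0.0950 for Irf9, 0.0989 for Dhx58 and 0.105 for Cmpk2. Without Stat3-deleted replicate 5 it was 0.0601 for Ifit3, 0.0693 for Ifi44, 0.0988 for Lgals3bp, 0.101 for Cmpk2, 0.108 for Dhx58 and 0.121 for Irf9. Either way 9 members were called, where 1.16% of all genes tested were higher without replicate 2 and 1.17% without replicate 5. Other Stat3-deleted livers ended 1 to 3 calls each: replicate 1 ended those of Irf9 (0.0859) and Cmpk2 (0.0579), replicate 3 those of Irf9 (0.0902), Cmpk2 (0.0525) and Lgals3bp (0.0531), and replicate 4 that of Irf9 (0.0515).

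Leaving out a WT control liver had the following effect on the same calls. Without replicate 1 the adjusted p was 0.110 for Irf9, 0.0712 for Cmpk2 and 0.0694 for Lgals3bp, and without replicate 2 it was 0.0657 for Irf9, 0.0630 for Dhx58 and 0.0574 for Lgals3bp. Replicate 3 ended the call of Dhx58 (0.0791). Without replicate 4 it was 0.114 for Irf9, 0.0792 for Cmpk2, 0.0702 for Dhx58, 0.0817 for Lgals3bp and 0.0511 for Ifi44. Without replicate 5 it was 0.0561 for Irf9, 0.0861 for Cmpk2 and 0.0678 for Dhx58, and without replicate 6 it was 0.0641 for Irf9, 0.0772 for Cmpk2, 0.06002 for Dhx58 and 0.0584 for Lgals3bp. Irf9 was also lost without WT PDAC replicate 1, 2 or 3 (0.0534, 0.0544 and 0.0577). Limma voom gave an adjusted p of 0.0561 for Ifi44. Scaling by library totals alone gave 0.0520 for Ifit3, 0.0685 for Dhx58, 0.125 for Irf9, 0.0827 for Cmpk2 and 0.0743 for Lgals3bp.

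Kupffer markers were higher here: 3 of 12 passed, where 2.19% of all genes tested were higher. Their median log2 fold change was 0.81, against 0.03 in Stat3-deleted over WT PDAC livers. They were also higher in WT PDAC over WT control livers: 2 of 12 passed (1.76% of all genes tested), with a median of 0.74. In that comparison 0 of the 38 members passed, and the median of the members was 0.09. The part of Kupffer cells in the members' levels was not tested.

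Between WT PDAC and WT control livers, the comparison of a tumour with Stat3 intact, 0 of the 38 members passed in either direction with edgeR, DESeq2 or limma voom, where edgeR found 1.76% of all genes tested higher and 0.49% lower. An unadjusted p under 0.05 was found for 2 members in edgeR, 2 in DESeq2 and 5 in limma voom. In edgeR that was 5.26% of the members, and 1816 of all 11218 genes tested had such a p. The 2 in edgeR were Zbp1, with a log2 fold change of 1.08 (SE 0.38 and adjusted p = 0.150), and Slfn2, with 0.90 (SE 0.35 and adjusted p = 0.196). Slfn2 ranged from 7.69 to 19.9 CPM (median 13.1) in WT PDAC and from 4.18 to 14.7 (median 5.85) in WT control livers, and the groups overlapped. The median of the members was 0.09 (-0.08 with library totals alone and -0.00583 without WT PDAC replicate 5), 20 of 38 lay above 0 (50.6% of all genes tested), and 0 members had groups apart, where 1.05% of all genes tested lay wholly above and 0.464% wholly below. A p that misses the threshold does not show that the levels were equal.

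The WT livers fall into a lower run of label numbers, 25458 to 25463, and a higher run, 25489 to 25504, with 3 livers of each WT group in each. The sources used here do not say what the runs stand for. With only the WT livers of the lower run, 7 members were higher in Stat3-deleted than in WT PDAC livers, where 3.76% of all genes tested were, and 0 were higher than in WT control livers, where only 0.153% of all genes tested were. With only those of the higher run, 5 members were higher than in WT PDAC livers (1.15% of all genes tested) and 8 higher than in WT control livers (1.36%). Some calls over WT PDAC livers that held without any 1 liver were lost in these edgeR fits. The lower run lost Ifit1 and Zbp1 (adjusted p = 0.0568 and 0.0936). The higher run lost Zbp1, Irf1, Irf7, Rsad2 and Rtp4 (0.0534, 0.118, 0.0577, 0.0565 and 0.0635). The median log2 fold change of the members stayed at 0.68 and 0.73 over WT PDAC livers and at 0.71 and 0.93 over WT control livers, in the lower and the higher run. Between WT PDAC and WT control livers 0 members passed within either run.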

How the data were processed

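RNA of 18 mouse livers (6 per group) was measured with the Lexogen QuantSeq 3′ FWD kit, per the labels. Per the submitters' processing notes, reads were aligned with STAR and the build was mm10. The sources used here name no counting tool, annotation or strand setting. Reads from antisense or overlapping stretches and from near-identical copies can therefore not be separated. The deposited table holds raw counts per gene symbol; 27 of its 24421 rows, whose symbol had become a bare number, were left out (0.103 to 0.166% of counts). The members and all lists were chosen with earlier results of these data known.

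Tests used R 4.3.3 and edgeR 4.0.16: TMM factors, filterByExpr (11218 genes kept), and a quasi-likelihood fit with 1 coefficient per group over all 18 livers (15 residual degrees of freedom, common biological coefficient of variation 0.281), with Benjamini-Hochberg adjustment over all genes tested. SE are those implied by the fold change and its F value. CPM use TMM-scaled library sizes. The procedure was tested on simulated data.

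Values by group are given for members called in any comparison and for the most abundant member of each role group; from other lists at most 4 genes with the smallest adjusted p are named, with Stat3 and Ifng, and 1 signalling gene is not reported here; Stat2, Ifnk, Ifnz, Ly6d and other members named singly were chosen after their values were seen. Motifs were searched in RefSeq promoters on GRCm38.p6 with Python 3.11.15; Biopython 1.88 aligned transcript ends. Alternatives were DESeq2 1.42.0, limma 3.58.1 voom with quality weights, RLE factors, library totals, 2 other filters, a threshold of 0.01, the 2 groups alone, replicate number as a block, label-number runs, and leaving out each liver. Nothing in the labels ties equal replicate numbers together, and the deviations of same-numbered livers correlated at -0.137 to 0.322, above 0.1 in 4 of 18 pairs, so the livers were not treated as paired. That the 6 livers of a group came from separate mice rests on their separate label numbers.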

Additional observations from a re-analysis of the deposited data

Results flagged for a closer look

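In 8 of the 114 sets of 6 livers examined (38 members in 3 groups), 1 liver stood apart from its group on the log2(CPM + 0.5) scale, by a gap to its nearest neighbour above Dixon's critical share of the group's range. Chance gives about 1 such set in 20. In WT PDAC replicate 6, Irf1 (15.6 CPM, next 35.1), Parp14 (11.8 CPM, next 28.3), Ifi44 (1.06 CPM, next 6.96) and Rtp4 (12.7 CPM, next 33.3) were each the lowest of the group. Irf9 was lowest in Stat3-deleted replicate 6 (47.7 CPM, next 76.8). Ifit2 was lowest in Stat3-deleted replicate 5 (1.10 CPM, next 2.13), the liver in which 22 other members were highest. In WT control livers, Oas3 was highest in replicate 1 (3.31 CPM, next 1.38) and Oasl1 lowest in replicate 2 (5.36 CPM, next 10.0). What sets these livers apart was not tested.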

How the results depend on the processing

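The number of members higher in Stat3-deleted than in WT PDAC livers, 14, was 12 to 17 under RLE factors, library totals, DESeq2 (9 genes without an adjusted p), limma voom, both filters and the 2 groups alone, and the 15 higher than in WT control livers were 10 to 19. Of all genes tested, 1.75% (no filter) to 5.13% (limma voom) were then higher than in WT PDAC livers, against 2.89% in the main fit. Over WT control livers the share was 1.24% (library totals) to 5.41% (limma voom), against 2.19%. At an adjusted p under 0.01 the members called were 5 and 6 (1.15% and 0.544% of all genes tested). With the lower run of WT label numbers they were 7 and 0 (3.76% and 0.153%), and with the higher run 5 and 8 (1.15% and 1.36%). In these runs 3 WT livers enter per group, and the cause of the lower counts was not tested. Leaving out 1 liver gave 9 to 17 and 9 to 18 members (1.89 to 4.18% and 1.11 to 3.18% of all genes tested). In WT PDAC against WT control livers it gave 0, where 1.02 to 2.53% of all genes tested were higher. Members with groups apart, all wholly above, numbered 0 to 7, 2 to 9 and 0 to 1 (1 without WT control replicate 3). Of all genes tested, 1.39 to 3.31%, 1.84 to 2.84% and 0.986 to 1.75% lay wholly above. With the replicate number as a block, 16 and 17 members were higher (3.31% and 2.45% of all genes tested). Between the WT groups 0 members passed, where 1.56% of all genes tested were higher. The samples of a block share only that number. Members called lower numbered 0 throughout.

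The log2 fold change of Ifih1 over WT PDAC livers, 0.01, turned to -0.14 in limma voom, -0.24 with the lower run and -0.00583 with the replicate block, and ran from -0.11 to 0.16 without 1 liver; over WT control livers, -0.11, it ran from -0.23 to 0.03686, the value without Stat3-deleted replicate 6. That of Parp9 over WT control livers, 0.17, turned to -0.0124 with the higher run. None of these passed a test. Library totals moved the median of all genes by -0.12 in Stat3-deleted against WT control and by -0.19 in WT PDAC against WT control livers. Calls over all genes were then 424 higher and 270 lower in Stat3-deleted against WT PDAC livers (324 and 362 with TMM), 139 and 372 in Stat3-deleted against WT control livers (246 and 298), and 115 and 177 in WT PDAC against WT control livers (197 and 55). Depth limits Oas1a, Oas1g, Oas2, Mx1 and the interferon genes.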
